A study of Drosophila melanogaster with 6 samples.

Results

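The 7 genes described here come from the enzyme families of the polyol pathway and were followed in whole male flies raised on glucose-supplemented holidic food. They were taken by name as the sorbitol dehydrogenases Sodh-1 and Sodh-2 and the aldo-keto reductases CG6084 (current symbol Akr1B), CG10638, CG10863, CG12766 and CG9436, 7 of the 17737 genes in the count files. All 7 were matched to a gene and all 7 were among the 13373 genes with a CPM (counts of a gene per 1e+06 counts of the library) of 1 or more in 3 or more libraries, the genes that were tested. They were chosen by their annotated family, with earlier results of these data known.

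In the polyol pathway, aldose reductase, an aldo-keto reductase, reduces glucose to sorbitol with NADPH, and sorbitol dehydrogenase then oxidizes sorbitol to fructose with NAD+. The pathway is best known from mammals, where it carries more glucose when glucose is high and has been linked to diabetic complications. In Drosophila it has been tied to sugar sensing by the transcription factor Mondo. The enzyme assignments of CG10638, CG10863, CG12766 and CG9436 rest on sequence family, and aldo-keto reductases as a family also reduce other aldehydes and ketones.

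Newly eclosed w1118 males were kept for 20 days at 25°C on glucose-supplemented holidic food (GSF, a chemically defined food with 50 g/L of added glucose) or on the same food without that addition (HF). The males were virgins according to the methods of the study, and all had developed on cornmeal food. RNA was extracted from 5 whole flies per sample, with 3 libraries per diet. The labels do not say whether the libraries came from separate cultures, so p-values measure the spread between these samples. The 3 GSF libraries held 60378391 to 66493536 counts on genes and the 3 HF libraries 51826530 to 60990342, so that 3 counts corresponded to between 0.0451 and 0.0579 CPM, far below the level of every gene described here. Ribosomal RNA genes took 20.6% to 24.5% of the counts on GSF and 17.9% to 18.6% on HF. Markers of 7 tissues were all detected, and of the 6 midgut markers 2 were lower on GSF (Mal-A1 and Amy-p), with a summed level of 2241 to 3277 CPM on GSF and 4246 to 5178 CPM on HF. Another midgut marker, mex1, had every GSF library above every HF library (log2 fold change 0.33, adjusted p = 0.0668). The summed levels overlapped between the diets for the fat body, renal tubule, testis, accessory gland and muscle markers, and also for the eye markers, and of all these 1 muscle marker was called (fln, lower on GSF). When the replicate number was fitted as a block, mex1 and the eye marker norpA passed, higher on GSF, and so did Jon99Ciii (midgut), Lsp2 (fat body), NaPi-T (renal tubule), SP and Acp53Ea (accessory gland), lower on GSF (adjusted p between 0.0046 and 0.0476). Lsp2 averaged 47.4 ± 54.1 CPM on GSF and 398 ± 190.1 CPM on HF (SD, n = 3 each), with a log2 fold change of -3.07 (adjusted p = 0.0765 without and 0.00526 with the block). A fit without ribosomal RNA genes is given below. Beyond that fit, the part of ribosomal RNA and of these tissue markers in the results was not tested. In whole flies, fewer cells of a type and less RNA per cell cannot be told apart.

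Of the 7 genes, 4 were lower on GSF and none was higher. A gene was called when p was under 0.01 and the Benjamini-Hochberg adjusted p, taken over all genes tested, was under 0.05 in edgeR's quasi-likelihood test. Sodh-1 fell by 1.31 on the log2 scale, CG12766 by 0.71, CG6084 by 0.36 and CG10863 by 0.28. Sodh-2, CG10638 and CG9436 did not pass. By the same rule 5.14% of all genes tested were called, 3.14% lower on GSF (420 genes) and 2.0% higher (267 genes). Blocked on replicate number, the fit called these 4 members again, beside 13.3% of all genes, or 6.52% lower. At an unadjusted p under 0.05, 5 of the 7 genes passed, all lower, against 19.7% of all genes in either direction. The count of higher genes was 0 at an unadjusted p under 0.05 and 0 with DESeq2. All 7 estimates were below 0, against 47.7% of all genes, and their median was -0.28 against 0.01 for all genes. The count of 4 was not stable. It ranged from 1 to 2 when each library was left out in turn, it was 2 with library size alone as the normalization and 2 with no filter on low counts, and it was 3 without ribosomal RNA genes. Sodh-1 was called in each of these.

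**Figure D1:**
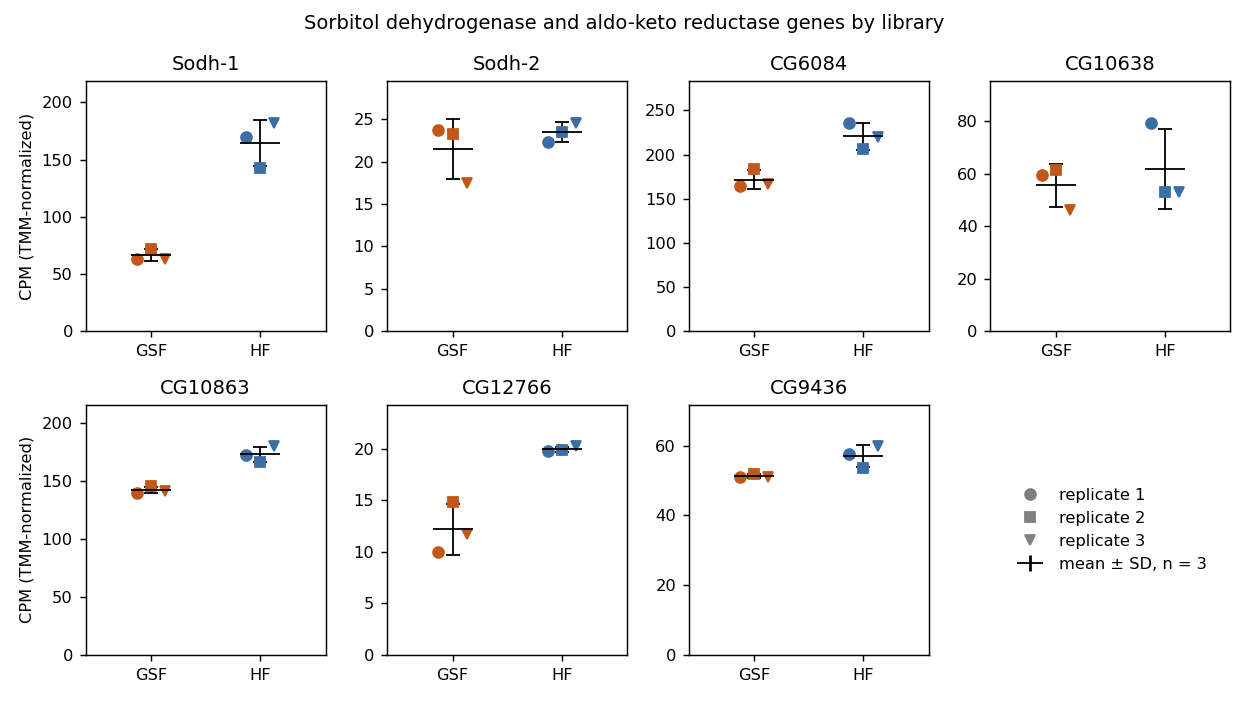
TMM-normalized CPM (y axis, from 0) of each gene in the 3 GSF libraries (orange) and the 3 HF libraries (blue), with marker shapes for the replicate number and black lines for the mean ± SD (n = 3). The GSF and HF points of Sodh-1 lie far apart (63.3 to 72.3 CPM against 143 to 182 CPM), those of CG6084, CG10863, CG12766 and CG9436 are separated by smaller gaps, and those of Sodh-2 and CG10638 overlap.

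Sodh-1 and Sodh-2 encode sorbitol dehydrogenases of equal length, 360 codons each. Sodh-1 (FBgn0024289) lies on chromosome arm 3R from 7052335 to 7054541 on the plus strand of assembly BDGP6.54, with 2 annotated transcripts of 6 exons. They have the same coding length and differ in the length of the 5′ UTR, 261 and 69 bases. Sodh-2 (FBgn0022359) lies on the same arm from 10876384 to 10878257, also on the plus strand, with 1 transcript of 6 exons. The gap between the genes is 3821842 bp, so they are not a tandem pair.

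Sodh-1 showed the largest change of the 7. Its level was 63.3, 72.3 and 63.3 CPM in the GSF libraries, against 169, 143 and 182 CPM in the HF libraries. Every GSF library was below every HF library. The means were 66.3 ± 5.20 CPM on GSF and 165 ± 20.2 CPM on HF (SD, n = 3 each). The level was 59.8% lower on GSF, with a log2 fold change of -1.31 (SE, the standard error of the fit, 0.11, 95% interval -1.56 to -1.07, adjusted p = 0.00363). Among the 13373 genes tested, Sodh-1 ranked 7 by p and 28 by the size of its fall, and among the 420 genes called lower it ranked 15 by size. Its call held in every alternative tried, with log2 fold changes of -1.39 to -1.23 and adjusted p of up to 0.029 when each library was left out in turn.

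Sodh-2 did not pass the test. It had 23.8, 23.3 and 17.5 CPM in the GSF libraries, against 22.3, 23.5 and 24.6 CPM in the HF libraries. GSF replicate 3 was the lowest of the 6, and the other GSF libraries lay within the range of the HF libraries. The log2 fold change was -0.13 (SE 0.12, 95% interval -0.41 to 0.16, adjusted p = 0.673), and it was 0.01 without GSF replicate 3. Sodh-2 shares 765 bp of its exons, 56.8% of them, with the antisense gene asRNA:CR45195 and 54 bp with CG14695, both on the opposite strand. The strand setting of the counting was not stated, so reads of Sodh-2 and of asRNA:CR45195 may not have been told apart. The antisense gene itself was at 15.0 to 21.5 CPM, with a log2 fold change of -0.10 (adjusted p = 0.776). Sodh-1 has no exon that overlaps another gene.

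The balance between the paralogs differed between the diets. Sodh-1 made up 72.7%, 75.7% and 78.4% of the counts on both genes in the GSF libraries, against 88.4%, 85.8% and 88.1% in the HF libraries. The exact Clopper-Pearson 95% intervals reached from 71.5% to 79.5% over the GSF libraries and from 85.1% to 89.0% over the HF libraries, covering counting error only. Sodh-1 thus had the larger count of the paralogs on both diets, with a ratio of counts to Sodh-2 of 3.13 ± 0.481 on GSF and 7.02 ± 0.838 on HF (SD, n = 3 each). The log2 ratio was lower by 1.17 on GSF in an exact two-sided permutation test (p = 0.1, adjusted over the 2 gene pairs compared p = 0.1), and 0.1 is the smallest p that 3 libraries against 3 allow.

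How reads that match both paralogs were counted was not stated, so the genes were also tested as a sum, which does not depend on the split. The sum does not bring back reads dropped because they match both. Sodh-1 made up 72.7% to 88.4% of it, so the sum mostly repeats the result of Sodh-1. The summed counts fell by 1.10 on the log2 scale on GSF (SE 0.10, adjusted p = 0.00384). This call also held in every alternative, with -1.17 to -1.02 when libraries were left out in turn.

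The 5 aldo-keto reductases lie on chromosome arms 3L and 2R and encode proteins of similar length, 310 to 350 codons. CG6084 (FBgn0086254) lies on 3L from 11620535 to 11624381 on the minus strand, with 4 transcripts of 350 or 316 codons. CG10638 (FBgn0036290) lies on 3L from 12498106 to 12501311 on the minus strand, with 3 transcripts of 317 or 310 codons. CG12766 (FBgn0035476, 3938624 to 3940125) and CG10863 (FBgn0027552, 3941008 to 3942465) are neighbours on 3L, both on the minus strand, with a gap of 882 bp and 0 coding genes between them. CG9436 (FBgn0033101) lies on 2R from 6757601 to 6758903 on the minus strand and has a single exon.

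CG6084, the fly relative of mammalian aldose reductase and the candidate for the first step of the pathway, was lower on GSF. It had 164, 184 and 166 CPM in the GSF libraries, against 236, 206 and 220.2 CPM in the HF libraries. The diets did not overlap, and GSF replicate 2 came closest to HF replicate 2. The means were 171 ± 10.6 CPM on GSF and 221 ± 15.1 CPM on HF (SD, n = 3 each), 22.3% lower on GSF. The log2 fold change was -0.36 (SE 0.08, 95% interval -0.55 to -0.18, adjusted p = 0.0461). The adjusted p is close to the threshold. It was 0.0516 with library size alone, 0.0522 with no filter, 0.0535 with the trend on exonic length removed, and 0.0708 to 0.168 when any library was left out, while the log2 fold change stayed between -0.42 and -0.31.

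CG10863 was lower on GSF by a small and even margin. Its level was 139.9, 145 and 142 CPM in the GSF libraries, against 173, 166 and 180.1 CPM in the HF libraries. The GSF libraries were close together, and the highest of them was below the lowest HF library. The means were 142 ± 2.84 CPM on GSF and 173 ± 6.78 CPM on HF (SD, n = 3 each), 17.8% lower on GSF, and the log2 fold change was -0.28 (SE 0.06, 95% interval -0.43 to -0.13, adjusted p = 0.0483). This call was the least stable of the 4. The adjusted p was between 0.0537 and 0.0672 with DESeq2 size factors, library size alone, the likelihood ratio test, the exact test, no filter, no ribosomal RNA genes or the length trend removed, and 0.107 to 0.182 when any library was left out. CG10863 shares 190 bp of exon, 17.4%, with asRNA:CR43916 on the opposite strand, which was at 47.4 to 56.1 CPM and had a log2 fold change of -0.16 (adjusted p = 0.21).

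CG12766, the neighbour of CG10863 and the least abundant of the 7 in CPM, had the larger fall of this pair. It had 9.98, 14.9 and 11.7 CPM in the GSF libraries, against 19.7, 19.8 and 20.2 CPM in the HF libraries. The HF libraries were nearly equal, the GSF libraries spread more widely, and no GSF library reached the HF level. The means were 12.2 ± 2.47 CPM on GSF and 19.9 ± 0.256 CPM on HF (SD, n = 3 each), 38.8% lower on GSF. The log2 fold change was -0.71 (SE 0.14, 95% interval -1.03 to -0.39, adjusted p = 0.0291). Without GSF replicate 2 it was -0.88 (adjusted p = 0.0199), the call was lost on leaving out any other library (adjusted p up to 0.108), and the adjusted p was 0.0524 with the length trend removed.

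The neighbouring genes CG12766 and CG10863 were also set against each other. The log2 ratio of CG12766 to CG10863 counts was -3.56 on GSF and -3.12 on HF, a difference of -0.45 (exact two-sided permutation test, p = 0.1, adjusted p = 0.1, the smallest that the design allows). CG10863 thus had 12.0 ± 2.12 times the counts of CG12766 on GSF and 8.68 ± 0.262 times on HF (SD, n = 3 each).

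The other 2 aldo-keto reductases did not pass. CG9436 had 51.0, 51.9 and 51.0 CPM in the GSF libraries, against 57.7, 53.6 and 59.8 CPM in the HF libraries. These did not overlap, but the gap between the highest GSF and the lowest HF library was small, and the log2 fold change was -0.15 (SE 0.07, 95% interval -0.31 to -0.0016, unadjusted p = 0.0482, adjusted p = 0.25). With CG9436, 5 of the 7 genes had every GSF library below every HF library, as did 12.9% of all genes tested, and 25.2% did not overlap in either direction. CG10638 had 59.4, 61.3 and 46.1 CPM in the GSF libraries, against 79.5, 53.0 and 53.1 CPM in the HF libraries, so that HF replicate 1 stood above the other 5 libraries. Its log2 fold change was -0.15 (SE 0.18, 95% interval -0.57 to 0.26, adjusted p = 0.747) and changed sign to 0.07 without HF replicate 1. Its interval leaves room for a fall as large as that of CG6084. CG10638 shares 367 bp of exon, 15.0%, with asRNA:CR43868 on the opposite strand.

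**Figure D2:**
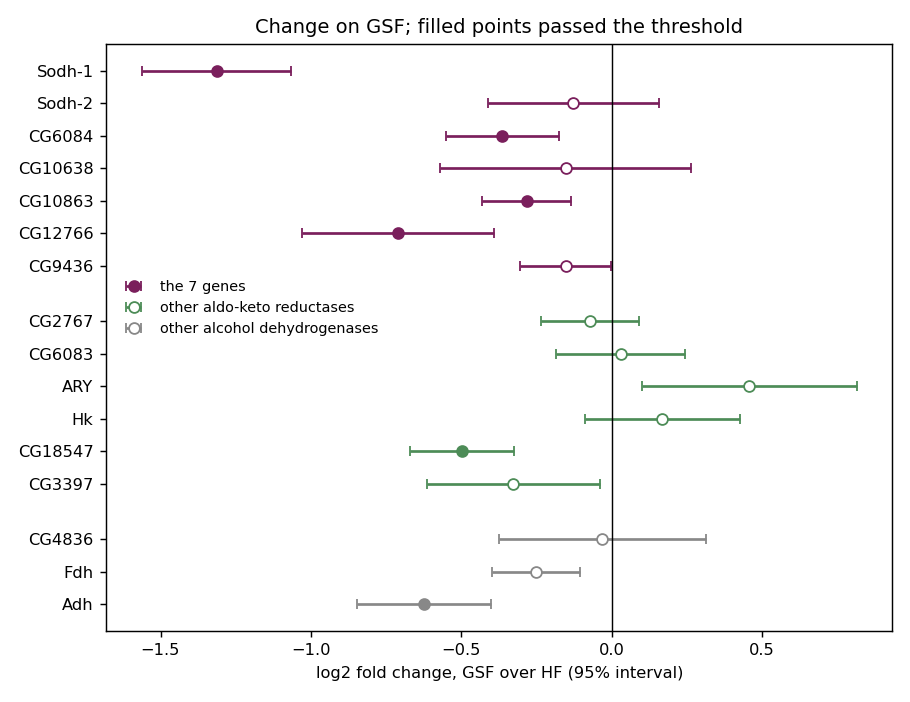
Log2 fold change of GSF over HF (x axis) with its 95% interval for the 7 genes, 6 other aldo-keto reductases and 3 other alcohol dehydrogenases. Filled points passed the threshold: Sodh-1 (-1.31), CG6084 (-0.36), CG10863 (-0.28), CG12766 (-0.71), CG18547 (-0.50) and Adh (-0.62).

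**Figure D3:**
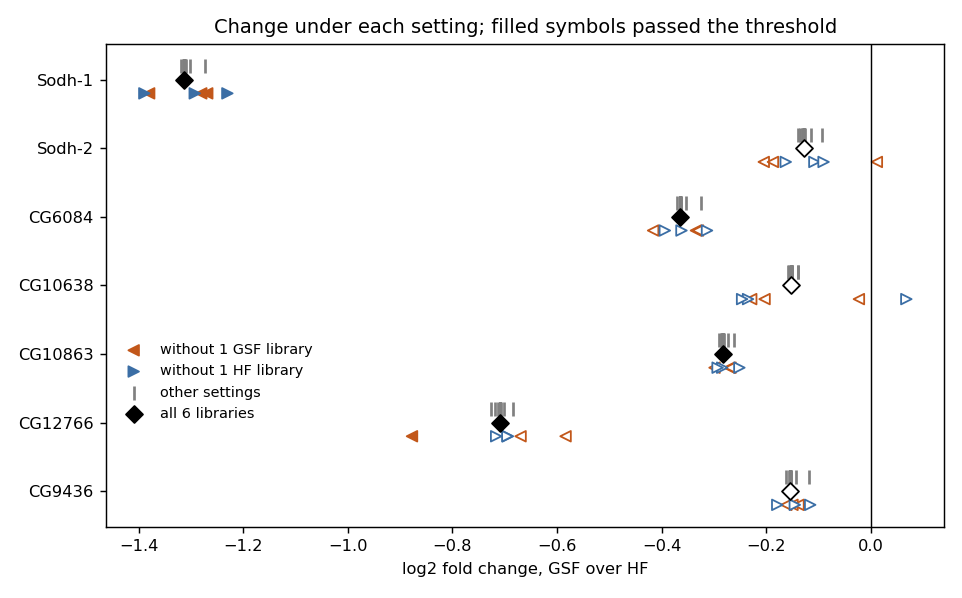
Log2 fold change of GSF over HF (x axis) of each gene with all 6 libraries (diamonds), without 1 GSF library (orange triangles), without 1 HF library (blue triangles) and under the other settings (grey ticks), where filled diamonds and triangles passed the threshold. Sodh-1 is filled throughout, at -1.39 to -1.23, while CG6084 and CG10863 are filled only with all 6 libraries and Sodh-2 and CG10638 each have 1 triangle to the right of 0.

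Levels were compared between genes per kilobase of exon and per 1e+06 counts on genes. The length of a gene was that of the exons of all its annotated transcripts merged. For CG10638 this was 2446 bp, whereas its single transcripts have 1115 to 1413 bases. Its level and its place in the order therefore depend on this choice of length. On this scale the order on GSF was CG10863 (131 ± 3.39), CG6084 (113 ± 7.38), Sodh-1 (47.9 ± 3.95), CG9436 (39.5 ± 0.971), CG10638 (22.8 ± 3.79), Sodh-2 (16.0 ± 2.90) and CG12766 (11.4 ± 2.26). On HF the levels were 158 ± 5.07 for CG10863, 144 ± 8.96 for CG6084, 118 ± 13.6 for Sodh-1, 43.6 ± 2.05 for CG9436, 25.2 ± 6.11 for CG10638, 18.5 ± 0.222 for CG12766 and 17.4 ± 0.849 for Sodh-2 (SD, n = 3 in each). On this scale the first 5 genes kept their order on both diets, and Sodh-2 and CG12766 exchanged places. The ranges of neighbouring genes over the libraries overlapped on HF for CG10863 and CG6084 and on GSF for Sodh-2 and CG12766, and for no other neighbours in the order.

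Summed per length, the sorbitol dehydrogenases were at 64.0 ± 6.15 on GSF and 136 ± 13.8 on HF, and the aldo-keto reductases at 318 ± 16.2 on GSF and 390.0 ± 17.3 on HF (SD, n = 3 each). The share of the dehydrogenases in the summed level of the 7 genes was 16.7% ± 0.664 on GSF and 25.8% ± 1.47 on HF. Sodh-1 alone made up 12.5% of that level on GSF and 22.4% on HF. Within the 7 genes, the reductases thus took the larger part of the summed level on both diets. The other aldo-keto reductases and alcohol dehydrogenases described below, among them CG4836 and Adh, were not in this sum.

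**Figure D4:**
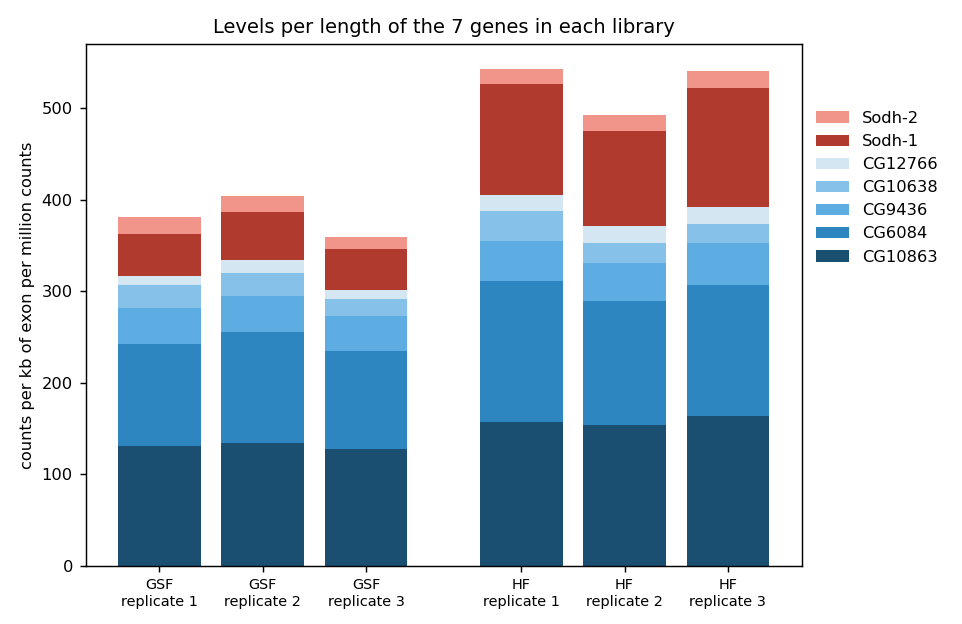
Counts per kilobase of exon and per 1e+06 counts on genes (y axis, from 0), stacked over the 7 genes for each of the 3 GSF and 3 HF libraries, with aldo-keto reductases in blue and sorbitol dehydrogenases in red. The mean height is 381.6 on GSF and 525.6 on HF, and the Sodh-1 block is 47.9 on GSF and 118 on HF.

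The order of the libraries within a diet was compared between the genes. GSF replicate 2 was the highest GSF library for 6 of the 7 genes, HF replicate 3 the highest HF library for 5 and HF replicate 2 the lowest HF library for 5. Over the 6 libraries, the Pearson correlation of log2 CPM with Sodh-1 was 0.996 for CG10863, 0.962 for CG6084, 0.933 for CG12766 and 0.927 for CG9436, 0.46 for Sodh-2 and 0.34 for CG10638. These values describe 6 libraries that share a diet in 2 sets of 3, so the difference between diets enters each of them.

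The genes closest to each called member by this measure, over the same 6 libraries, were sought among all genes tested other than the 7. For Sodh-1 they were dj-1beta (0.996), the fly counterpart of the oxidative stress protein DJ-1, the mannosidase gene beta-Man (0.996) and yellow-f2 (0.995). The log2 fold changes of these genes were -0.40 for dj-1beta (adjusted p = 0.0135), -0.11 for beta-Man (adjusted p = 0.334) and -0.38 for yellow-f2 (adjusted p = 0.0203), all smaller than that of Sodh-1. For CG6084 they were the homeobox gene E5 (0.995), CG32833 (0.993) and the citrate transporter gene Indy (0.990). For CG10863 they were beta-Man (0.998), lncRNA:CR45013 (0.996) and CG31089 (0.995). For CG12766 they were asRNA:CR44062, CG7997 and the glycerol-3-phosphate acyltransferase gene mino, each at 0.990.

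Relatives of the 7 genes in the same enzyme families were examined by the same test. By this test 3.14% of all genes were called lower on GSF. Of 6 other aldo-keto reductases, 1 was lower on GSF and none was higher, with a median log2 fold change of -0.02. CG18547 had 37.9, 42.3 and 37.8 CPM in the GSF libraries, against 58.4, 54.7 and 53.6 CPM in the HF libraries, or -0.50 on the log2 scale (SE 0.07, adjusted p = 0.0133), which did not pass without GSF replicate 1, GSF replicate 3 or HF replicate 1 (adjusted p up to 0.0608). Blocked on replicate number, ARY also passed, higher on GSF (log2 fold change 0.46, adjusted p = 0.148 without and 0.0355 with the block). ARY passed with DESeq2 too (adjusted p = 0.0475). Of 3 other alcohol dehydrogenases, 1 was lower on GSF, with a median of -0.25. CG4836 averaged 1693 ± 136.5 CPM on GSF and 1730 ± 351.6 CPM on HF (SD, n = 3 each). Its log2 fold change was -0.03 (adjusted p = 0.957), and it did not pass. Adh, the alcohol dehydrogenase that lets flies use ethanol, averaged 2582 ± 279.6 CPM on GSF and 3982 ± 224 CPM on HF (SD, n = 3 each), or -0.62 on the log2 scale (SE 0.10, adjusted p = 0.0141), which did not pass without GSF replicate 1, GSF replicate 3 or HF replicate 2 (adjusted p up to 0.058). Fdh, the glutathione-dependent formaldehyde dehydrogenase, had a log2 fold change of -0.25 (adjusted p = 0.0672). It passed with the block (adjusted p = 0.0297) and with DESeq2 (adjusted p = 0.00106).

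Aldose reductase draws on NADPH, and genes of the pathways that supply it were examined next. Of 11 genes of the pentose phosphate pathway and other NADPH sources, 8 were lower on GSF and none was higher, all 11 estimates were below 0, and the median log2 fold change was -0.47. By libraries, 10 of the 11 had every GSF library below every HF library, as did 12.9% of all genes tested. Over all genes tested, 3.14% were called lower and 47.7% had an estimate below 0. The transaldolase gene Taldo had 169, 179 and 177 CPM in the GSF libraries, against 296, 307 and 288 CPM in the HF libraries, or -0.76 on the log2 scale (SE 0.06, adjusted p = 0.00363). In the oxidative branch, which makes NADPH, the glucose-6-phosphate dehydrogenase gene Zw fell by 0.34, the 6-phosphogluconolactonase gene CG17333 by 0.45 and the 6-phosphogluconate dehydrogenase gene Pgd by 0.47 on the log2 scale. In the non-oxidative branch, Rpi, the ribose-5-phosphate isomerase gene, fell by 0.44 and the transketolase gene CG8036 by 0.48. Of the other NADPH sources, the malic enzyme gene Men fell by 0.62 and the isocitrate dehydrogenase gene Idh by 0.47. The adjusted p of these 7 genes was between 0.0132 and 0.0251. With the replicate block, Men-b (log2 fold change -0.55, adjusted p = 0.117 without and 0.00393 with the block) and CG30499, the ribulose-phosphate epimerase gene (-0.26, adjusted p = 0.0958 without and 0.0234 with the block), passed as well. Both also passed with DESeq2 (adjusted p = 0.0212 for Men-b and 0.0162 for CG30499). The count of 8 fell to between 1 and 7 when each library was left out in turn, with 1 without GSF replicate 1, 4 without GSF replicate 2, 1 without GSF replicate 3, 2 without HF replicate 1, 4 without HF replicate 2 and 7 without HF replicate 3. Taldo was called in each of these.

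The first steps of glucose use beside the polyol pathway were also examined. Of 5 genes of the hexokinases and glucose-6-phosphate isomerase, 1 was lower on GSF, and the median log2 fold change was -0.10. All 5 estimates were below 0. Among all genes tested, 47.7% had an estimate below 0 and 3.14% were called lower. The hexokinase gene Hex-C had every GSF library below every HF library and a log2 fold change of -0.44. It did not pass in the main fit (adjusted p = 0.0603) or with the block (adjusted p = 0.0506), and it was not followed by name in the other settings. Pgi, the glucose-6-phosphate isomerase gene, averaged 343 ± 9.86 CPM on GSF and 439.7 ± 14.1 CPM on HF (SD, n = 3 each), or -0.36 on the log2 scale (SE 0.06, adjusted p = 0.0236), and it did not pass when any library was left out (adjusted p 0.065 to 0.0945). With DESeq2, 2 of the 5 genes were called, Pgi among them. Without HF replicate 2, 1 of the 5 was called, and it was not Pgi.

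Sugar sensing and antioxidant genes were examined last. Of 5 genes of Mondo-Mlx sugar sensing, none was called with edgeR without the replicate block, 2 were called with the block, 2 had an unadjusted p under 0.05, and 1 was called with DESeq2. Among all 13373 genes tested, 13.3% were called with the block and 19.7% had an unadjusted p under 0.05. DESeq2 called 824 of them lower and 604 higher. The median log2 fold change of the 5 genes was -0.08. Mondo, the sugar-responsive transcription factor, had 80.5, 94.9 and 87.3 CPM in the GSF libraries, against 105, 112 and 112 CPM in the HF libraries. Its log2 fold change was -0.33 (adjusted p = 0.0584), and it passed with the replicate block (adjusted p = 0.0146) and with DESeq2 (adjusted p = 0.00926). The TGF-beta ligand gene daw, a known target of sugar sensing, had a log2 fold change of 0.34 (adjusted p = 0.194, and 0.0497 with the block). Of 6 genes of the cnc-Keap1 antioxidant response, none was called with edgeR, with or without the block, or with DESeq2, none had an unadjusted p under 0.05, and the median was -0.08. Trxr1, the thioredoxin reductase gene, had a log2 fold change of -0.13 (adjusted p = 0.359) and the glutathione S-transferase gene GstD1 one of -0.15 (adjusted p = 0.577).

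**Figure D5:**
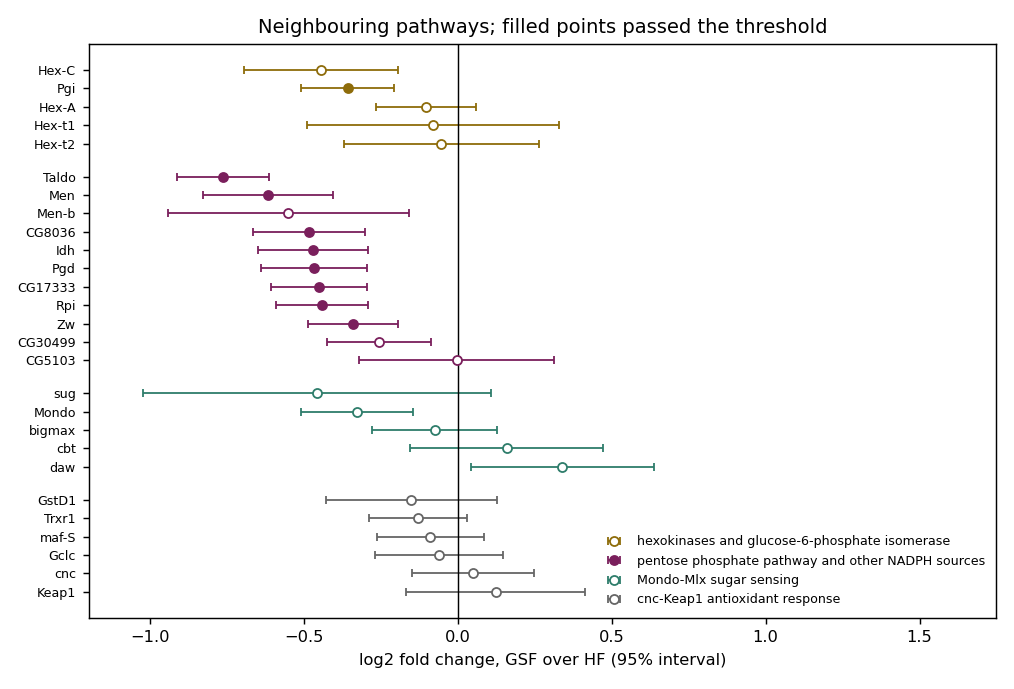
Log2 fold change of GSF over HF (x axis) with its 95% interval for the genes of 4 lists around the polyol pathway, with filled points past the threshold. Of the genes of the pentose phosphate pathway and other NADPH sources, 8 of 11 are filled, all to the left of 0, against 1 of 5 for the hexokinases and glucose-6-phosphate isomerase and none for the Mondo-Mlx and cnc-Keap1 genes.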

How the data were processed

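RNA sequencing of whole w1118 males gave 6 libraries, 3 on GSF and 3 on HF. The authors trimmed paired-end reads with Trimmomatic, aligned them to the bdgp6 transcriptome with HISAT2 (version 2.1.0), converted the files with SAMtools (version 1.8) and counted reads per gene with Rsubread. The deposited values are raw counts per gene. The strand setting and the treatment of reads that match several genes are not given in the sources used here. A deposited comparison table holds the authors' fold changes, mean expression and p-values, none of which were used. Only its gene symbols and IDs were read.

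Counts were tested with edgeR (version 4.0.16, R version 4.3.3), using TMM normalization, a minimum of 1 CPM in 3 or more libraries and the quasi-likelihood test, called at p under 0.01 and FDR under 0.05. The use of edgeR, the 1 CPM filter and the thresholds follow the method of the study, whereas TMM, the number of libraries in the filter and the quasi-likelihood test were chosen here. Printed CPM are TMM-normalized, standard errors come from the F statistic, and intervals are 95%. The fit was also run on simulated counts with known changes. These were drawn independently for each library, with a spread estimated from these data. The simulation therefore does not cover the correlation between libraries of the same replicate number, and no result here rests on it. DESeq2 (version 1.42.0), other normalizations and filters, a replicate block and left-out libraries were tried as alternatives. Removing the trend with gene length (fitted by a spline, 5 degrees of freedom) and running DESeq2 on the pathway lists were chosen after seeing the data. Replicate numbers come from the sample titles. Across genes, deviations from the diet means correlated at 0.188, 0.247 and 0.476 for libraries with the same number. For the others they correlated at -0.309 to 0.115. The main fit did not pair libraries by number, and only the replicate block did.

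The 7 genes and the gene lists were chosen with earlier results of these data known. All 81 list entries matched a gene of the files. From each list, genes past the threshold were named, or else the 2 with the smallest p, together with genes whose call the block changed. CG4836 and Hex-C were named in addition. For each called member, the 3 genes outside the 7 with the highest correlation of log2 CPM (prior count 2) were named. Gene models came from the annotation of assembly BDGP6.54, which gave an exonic length for 17599 genes. Promoter motifs and protein identity were not analysed here.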

Additional observations from a re-analysis of the deposited data

How the results depend on the processing

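The tests of the 7 genes, the sum of Sodh-1 and Sodh-2 and the counts over all genes were recomputed under 18 other settings. The list counts and most of the named list genes were recomputed under 8 of these, and the levels per length in TPM. Tissue markers were refitted only with the replicate block, and the ratios of gene pairs and the correlations were not recomputed. Over all 18 alternatives the direction of Sodh-1, CG6084, CG10863, CG12766 and CG9436 stayed lower on GSF, and no member was called higher. Of the values with a test, counted over all settings, 213 kept their direction and their side of the threshold, 69 lost the call, 12 gained it and 2 changed sign. The sign changed for Sodh-2 without GSF replicate 3 (0.0118, range over left-out libraries -0.20 to 0.0118) and for CG10638 without HF replicate 1 (0.0682, range -0.25 to 0.0682), and the cause was not tested. The number of members called lower, 4, was 2 with library size alone, 2 with no filter and 1 with the length trend removed, an alternative chosen after seeing the data, and 1 to 2 when libraries were left out in turn. Over all genes, 420 lower and 267 higher calls became 824 and 604 with DESeq2, 1324 and 1307 at an unadjusted p under 0.05, 65 to 293 and 48 to 224 with libraries left out, and 470 higher with the likelihood ratio test and 468 with the exact test. With DESeq2, also added after seeing the data for the lists, the other aldo-keto reductases, the other alcohol dehydrogenases and the hexokinases with Pgi had 2 calls each and the Mondo-Mlx genes 1. With libraries left out, these first 3 lists had 0 to 1 calls each and the pentose phosphate list 1 to 7. Fits without a library have fewer samples. The summed level per length was 696.2 on GSF and 916.7 on HF in TPM, which counts only genes with an exonic length and divides by their summed length-scaled counts.

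With the replicate block, 872 genes were called lower and 910 higher, and the other aldo-keto reductases, the other alcohol dehydrogenases and the Mondo-Mlx genes had 2 calls each. The pairing left all 4 members called, and it changed no call of a pathway list gene other than those of ARY, Fdh, Men-b, CG30499, Mondo and daw. Every member had at least 632 counts in each library, and the part of depth in the precision of these values was not tested.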
